A study of Mus musculus with 39 samples.

Results

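Nuclear RNA of 38 genes of the endoplasmic reticulum (ER) folding and stress machinery was compared between nuclei isolated by INTACT and by FANS, and the accessible chromatin at their start sites was compared in the same way. The genes were taken by name from the 24421 genes of the RNA-seq tables, and all 38 were found. Of these, 21 are chaperones and folding enzymes of the ER lumen and subunits of its translocon, and 6 are genes of ER-associated degradation. The other 11, called sensors and factors below, are stress sensors, transcription factors and genes linked to them. The linked genes are the phosphatase subunits Ppp1r15a and Ppp1r15b, the proteases Mbtps1 and Mbtps2, and the pseudokinase Trib3. Proteins that enter the ER are folded by chaperones, and those that fail to fold are carried back to the cytosol and degraded. When unfolded proteins build up, 3 sensors in the ER membrane (IRE1, PERK and ATF6) start the unfolded protein response, in which the factors XBP1, ATF4 and cleaved ATF6 raise the transcription of chaperone and degradation genes. Neurons make large amounts of membrane and secreted proteins and depend on the folding capacity of the ER.

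All nuclei came from the neocortex of adult mice of both sexes that carried Arc-creERT2 (TG/WT), a tamoxifen-dependent Cre driven by the neuronal activity gene Arc, and the reporter R26 CAG-Sun1-sfGFP-Myc on 1 allele (M/WT) or on both (M/M), which puts sfGFP on the nuclear membrane after Cre has acted. All mice received tamoxifen and a social interaction test, so FANS and INTACT were both applied to nuclei of cells in which Arc had been expressed around that time. FANS sorted the fluorescent nuclei by flow cytometry, whereas INTACT pulled them down with antibody-coated magnetic beads. RNA-seq was done on 10000 nuclei per library. Its batches held 4 FANS and 4 INTACT libraries (batch 1), 7 and 4 (batch 2) and 7 and 5 (batch 3). ATAC-seq was done in 3 libraries per technique, on 50000 nuclei by the study's library protocol. Its INTACT protocol names a smaller number for ATAC-seq. Per the study's account each RNA-seq batch is a distinct biological source and the ATAC-seq libraries are technical replicates of a single source, so SDs and p values measure the spread between these libraries, which may be technical. RNA integrity was higher in batch 1 by the same account, so batch, source and RNA integrity cannot be told apart. Values are HTSeq read counts that the authors divided by a size factor for each library, here called normalized counts, and a log2 fold change is INTACT minus FANS on log2(normalized count + 1), which understates the change of genes with low counts.

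Reads on genes numbered 4205665 to 11028713 per RNA-seq library, and in batch 1 the INTACT libraries were deeper (8621143 to 11028713) than the FANS libraries (4853224 to 6066759). The share of uniquely aligned reads outside gene features was 73.6 to 75.3% in INTACT and 81.9 to 84.3% in FANS in batch 1, 79.8 to 81.4% against 81.9 to 84.0% in batch 2, and 84.4 to 85.5% against 82.6 to 87.5% in batch 3. All 12 markers of excitatory neurons had a read in every library, and in batch 1 their summed normalized counts overlapped between FANS (12355 to 12659) and INTACT (11978 to 12532). Single markers of this list differed, as 4 of the 12 passed the adjusted p alone as higher and 3 as lower, and none was called at 1.5-fold. Of the 14 oligodendrocyte markers, 9 were called higher in INTACT, with sums of 6502 to 8051 in FANS and 10491 to 11090 in INTACT. Of the 13 astrocyte markers, 6 were called higher, with sums of 6819 to 7507 in FANS and 8563 to 8818 in INTACT. No marker of these lists was at 0 in every library of a group, whereas Dlx2 (inhibitory neurons), C1qa (microglia) and Cldn5 and Kcnj8 (vascular cells) were at 0 in all 4 FANS libraries. In batch 2 the called oligodendrocyte markers were 5 of 13 tested, with sums of 7334 to 14174 in FANS and 14062 to 16983 in INTACT, and in batch 3 they were 0 of 13. Of the 9 inhibitory neuron markers tested in batch 1, 4 were called higher and 1 lower, with sums of 338 to 463 in FANS and 442 to 515 in INTACT. Of the 11 astrocyte markers tested in batch 2, 1 was called higher. Among all genes, 4.03% were called higher in batch 1 and 18.6% passed there as higher by the adjusted p alone. In batch 2, 0.128% of all genes were called in either direction. The shifts of the markers were measured beside the ER genes and their part in the results below was not tested. In bulk nuclei, fewer cells of a type and less RNA per cell cannot be told apart.

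The 38 genes span a wide range of nuclear RNA. Divided by exon length, the mean normalized count in the FANS libraries of batch 1 had a median of 93.3 per kb over the 38 genes, against 57.9 per kb over the 15058 tested genes with a known exon length. On this scale Hsp90b1, which encodes the ER chaperone GRP94, was highest at 641 per kb. Calr and Canx, the lectin chaperones calreticulin and calnexin, followed at 324 and 319 per kb, and Hspa5, the master chaperone BiP, stood at 268 per kb. The medians of the roles were 101 per kb for the luminal genes, 90.6 per kb for the degradation genes and 67.3 per kb for the sensors and factors. The lowest levels per kb were those of Sec61b (12.5), a small subunit of the translocon, Sdf2l1 (12.9), a partner of BiP, and Trib3 (0.998), a pseudokinase that ATF4 and CHOP induce. Trib3 was below the minimum mean normalized count of 5 in each batch, so 37 of the 38 genes were tested.

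Promoters of several of these genes carry known response elements, which are shown because factors of the unfolded protein response bind such letters. Reference promoters of 300 bases (250 before to 50 after the start site, RefSeq, build GRCm38.p6, which is mm10) were held for 32 of the 38 genes, and 4 sets of letters were searched on both strands. The ER stress response element (ERSE), bound by the factor NF-Y together with cleaved ATF6 or XBP1, was searched as CCAAT, any 9 bases, CCACG. It was found in 39 of 32851 promoters (0.119%) and in those of 8 members. The second form (ERSE-II) was searched as ATTGG, any base, CCACG, and was found in 12 promoters (0.0365%), of which 2 belong to members. No match overlapped another. The matches are printed below in the direction of the motif, with the fixed letters in capitals, and the gap of any bases in lower case.
Hspa5, chr2:34772025-34772043: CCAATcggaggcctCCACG
Hsp90b1, chr10:86705638-86705656: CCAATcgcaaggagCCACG
Hsp90b1, chr10:86705533-86705551: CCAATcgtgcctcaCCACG
Calr, chr8:84847075-84847093: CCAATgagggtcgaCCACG
Canx, chr11:50325800-50325818: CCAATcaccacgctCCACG
Pdia6, chr12:17266491-17266509: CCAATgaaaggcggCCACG
Creld2, chr15:88819520-88819538: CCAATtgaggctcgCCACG
Dnajc3, chr14:118937827-118937845: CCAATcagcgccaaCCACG
Syvn1, chr19:6046532-6046550: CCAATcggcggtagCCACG
Dnajb11, chr16:22857852-22857862: ATTGGcCCACG
Herpud1, chr8:94386377-94386387: ATTGGgCCACG
Of these 10 genes, 8 belong to the luminal group and 2, Syvn1 and Herpud1, to degradation. Hsp90b1 held 2 matches. The element of XBP1 and ATF6, TGACGTGG, was found in 222 promoters (0.676%) and among the members in Txndc5 alone (chr13:38528045-38528052). The ATF4 element, searched as TGATG, any base, AAT, was found in 317 promoters (0.965%) and in none of the members, which says only that these letters are not in these windows. All 12 matches of members lay inside the start-site peak of all 6 ATAC-seq libraries.

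For 3 abundant chaperones with an element, the 250 bases before the start site are given 5′ to 3′ on the strand of the gene, with the ERSE in capitals. The element of Hspa5 and the first of Hsp90b1 read in the direction of the gene, whereas that of Calr and the second of Hsp90b1 lie on the opposite strand and so appear as the reverse complement.
Hspa5, chr2:34771840-34772089, + strand: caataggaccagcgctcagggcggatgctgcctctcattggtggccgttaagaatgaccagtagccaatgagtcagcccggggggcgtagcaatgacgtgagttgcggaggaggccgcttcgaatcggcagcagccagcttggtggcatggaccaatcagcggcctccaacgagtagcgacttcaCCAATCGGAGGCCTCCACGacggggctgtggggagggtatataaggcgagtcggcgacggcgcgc
Hsp90b1, chr10:86705445-86705694, - strand: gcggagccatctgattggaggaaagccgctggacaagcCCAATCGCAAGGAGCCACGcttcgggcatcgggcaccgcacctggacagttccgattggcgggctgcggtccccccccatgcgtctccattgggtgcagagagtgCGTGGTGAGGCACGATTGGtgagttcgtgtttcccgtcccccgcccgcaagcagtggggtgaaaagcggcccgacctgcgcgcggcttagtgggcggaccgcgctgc
Calr, chr8:84846932-84847181, - strand: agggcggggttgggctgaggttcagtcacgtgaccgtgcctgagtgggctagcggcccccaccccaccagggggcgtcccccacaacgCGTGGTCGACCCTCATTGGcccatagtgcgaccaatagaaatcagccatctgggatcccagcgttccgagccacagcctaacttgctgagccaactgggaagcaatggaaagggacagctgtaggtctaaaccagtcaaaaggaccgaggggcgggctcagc

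In batch 1 most ER genes had higher normalized counts in INTACT than in FANS, and the 6 called at 1.5-fold were chaperones and disulfide enzymes of the lumen. Positive differences were found for 35 of the 37 tested genes, with a median log2 fold change of 0.36 against 0.0067 over all 15114 genes tested. By limma with Benjamini-Hochberg adjustment, 22 genes passed an adjusted p of 0.05 in this direction and 0 in the other, where 18.6% of all genes passed in this direction. At the added threshold of 1.5-fold, 6 of the 37 were called, where 4.03% of all genes were, and edgeR and DESeq2 on the recovered reads called the same 6. The genes were chosen with results of batch 1 known, so these counts are no independent evidence of the direction. By role, the median was 0.52 for the luminal genes (14 of 21 passed, 6 at 1.5-fold), 0.39 for degradation (4 of 6, 0 at 1.5-fold) and 0.23 for the sensors and factors (4 of 10, 0 at 1.5-fold). Every INTACT library lay above every FANS library for 21 of the 37 genes, 13 luminal, 4 of degradation and 4 of the sensors and factors, where 17.1% of all genes showed this.

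In batch 2 no ER gene was called, where 0.128% of all genes were called in either direction. The median log2 fold change was 0.075, with 0.12 for the luminal genes, 0.12 for degradation and 0.0073 for the sensors and factors. At an unadjusted p of 0.05, 7 genes passed in limma, all of them higher in INTACT, where 8.66% of all genes were higher at this p. Without INTACT replicate 1 this count was 3 and without INTACT replicate 2 it was 2. In batch 3 again no ER gene was called, where 0.360% of all genes were, and the median was -0.11, with -0.14, -0.031 and -0.11 for the roles in the same order. Here 18 genes passed an unadjusted p of 0.05 in limma, and 16 of these were lower in INTACT, where 6.46% of all genes were lower at this p. The 18 became 8 without INTACT replicate 3 and 10 without FANS replicate 2. edgeR and DESeq2 on the recovered reads also called 0 ER genes in batches 2 and 3. No ER gene had libraries of the techniques without overlap in either batch, where INTACT lay above FANS for 1.59% and 0.997% of all genes.

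**Figure D1:**
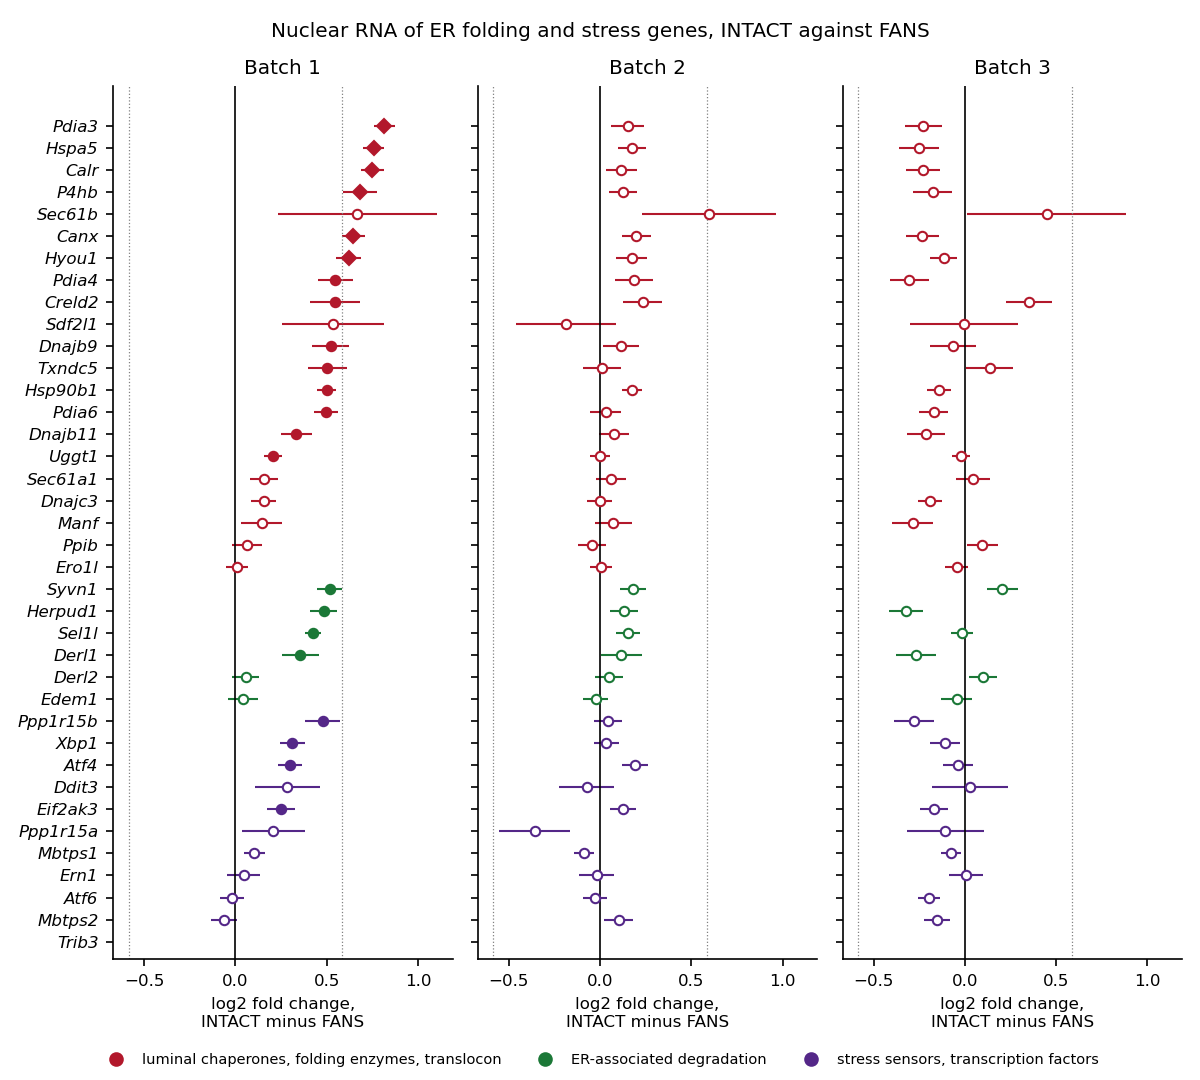
Log2 fold change of normalized counts between INTACT and FANS (x axis, INTACT minus FANS, bars are the standard error of limma) for each gene (y axis, ordered by batch 1 within a role, colours are roles) in the 3 batches. Filled symbols passed an adjusted p of 0.05, diamonds also the 1.5-fold threshold (dotted lines), and Trib3 was not tested. In batch 1 all 21 luminal genes lie to the right of 0, whereas the symbols of batches 2 and 3 are all open.

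Among the 6 genes called in batch 1, Pdia3 (ERp57; chr2:121413902-121438687, + strand) forms disulfide bonds in glycoproteins held by calnexin and calreticulin, and it had the largest difference of the 37 genes. Pdia3 normalized counts in batch 1 were 523, 584, 503 and 561 in FANS and 954, 977, 924 and 962 in INTACT, without overlap (log2 fold change 0.82 ± 0.058 (SE), adjusted p = 1.21e-10). Batch 2 held Pdia3 at 656 to 1032 (median 883) in FANS and at 1024, 1083, 856 and 824 in INTACT, with overlap (log2 fold change 0.15 ± 0.091 (SE), adjusted p = 0.444). Batch 3 held Pdia3 at 508 to 908 (median 727) in FANS and at 554, 679.7, 588, 584 and 545 in INTACT, with overlap (log2 fold change -0.23 ± 0.10 (SE), adjusted p = 0.296). Hspa5 (BiP; chr2:34772090-34776529, + strand) binds unfolded stretches in the lumen and holds the sensors inactive. Hspa5 normalized counts in batch 1 were 720.3, 722, 638 and 726 in FANS and 1106, 1220.0, 1183 and 1234 in INTACT, without overlap (log2 fold change 0.76 ± 0.057 (SE), adjusted p = 2.9e-10). Batch 2 held Hspa5 at 807 to 1090.0 (median 952) in FANS and at 1119, 1246, 984 and 967 in INTACT, with overlap (log2 fold change 0.18 ± 0.077 (SE), adjusted p = 0.266). Batch 3 held Hspa5 at 563 to 1044 (median 824) in FANS and at 698, 742, 529, 585 and 628 in INTACT, with overlap (log2 fold change -0.25 ± 0.11 (SE), adjusted p = 0.287). The lowest FANS value of Hspa5 in batch 1 was that of replicate 3. Calr (chr8:84842088-84846931, - strand) retains glycoproteins in the lumen until they fold and binds calcium. Calr normalized counts in batch 1 were 674, 630.2, 551 and 666 in FANS and 978, 1052, 1096 and 1106 in INTACT, without overlap (log2 fold change 0.75 ± 0.064 (SE), adjusted p = 1.85e-09). Batch 2 held Calr at 689.9 to 922 (median 861) in FANS and at 964, 1043, 845 and 726 in INTACT, with overlap (log2 fold change 0.12 ± 0.085 (SE), adjusted p = 0.556). Batch 3 held Calr at 529.7 to 844 (median 726) in FANS and at 598, 639, 513, 556 and 537 in INTACT, with overlap (log2 fold change -0.23 ± 0.091 (SE), adjusted p = 0.232).

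P4hb (protein disulfide isomerase; chr11:120560298-120573253, - strand) catalyses disulfide formation in client proteins. P4hb normalized counts in batch 1 were 179, 205, 149.9 and 188 in FANS and 313, 289, 261 and 292 in INTACT, without overlap (log2 fold change 0.68 ± 0.095 (SE), adjusted p = 3.22e-06). Batch 2 held P4hb at 209.7 to 244 (median 228) in FANS and at 244, 270.2, 225 and 243 in INTACT, with overlap (log2 fold change 0.12 ± 0.076 (SE), adjusted p = 0.46). Batch 3 held P4hb at 116 to 197 (median 176) in FANS and at 142, 148, 137, 129 and 163 in INTACT, with overlap (log2 fold change -0.18 ± 0.11 (SE), adjusted p = 0.499). Canx (chr11:50293957-50325673, - strand) is the membrane-bound counterpart of calreticulin. Canx normalized counts in batch 1 were 1501, 1299.7, 1182 and 1489 in FANS and 2228, 2025, 2115 and 2159.6 in INTACT, without overlap (log2 fold change 0.65 ± 0.061 (SE), adjusted p = 9.69e-09). Batch 2 held Canx at 1466 to 1945 (median 1728) in FANS and at 2212, 2389.8, 1658 and 1735 in INTACT, with overlap (log2 fold change 0.20 ± 0.081 (SE), adjusted p = 0.228). Batch 3 held Canx at 1021 to 1718 (median 1377) in FANS and at 1283, 1252, 1034, 1162 and 1048 in INTACT, with overlap (log2 fold change -0.23 ± 0.088 (SE), adjusted p = 0.204). Hyou1 (GRP170; chr9:44379490-44392369, + strand) is a large chaperone that exchanges the nucleotide on BiP. Hyou1 normalized counts in batch 1 were 418, 402, 348 and 436 in FANS and 608, 589, 622 and 641 in INTACT, without overlap (log2 fold change 0.62 ± 0.069 (SE), adjusted p = 1.42e-07). Batch 2 held Hyou1 at 404 to 529 (median 487) in FANS and at 572, 626, 451 and 482 in INTACT, with overlap (log2 fold change 0.17 ± 0.085 (SE), adjusted p = 0.331). Batch 3 held Hyou1 at 316 to 447 (median 358) in FANS and at 332, 359.9, 336, 356 and 312 in INTACT, with overlap (log2 fold change -0.12 ± 0.076 (SE), adjusted p = 0.532). Without FANS replicate 3 of batch 1, the library with the lowest counts of Canx and Hyou1, the log2 fold changes of Canx (0.58) and Hyou1 (0.55) fell short of 1.5-fold, and 4 genes remained called.

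**Figure D2:**
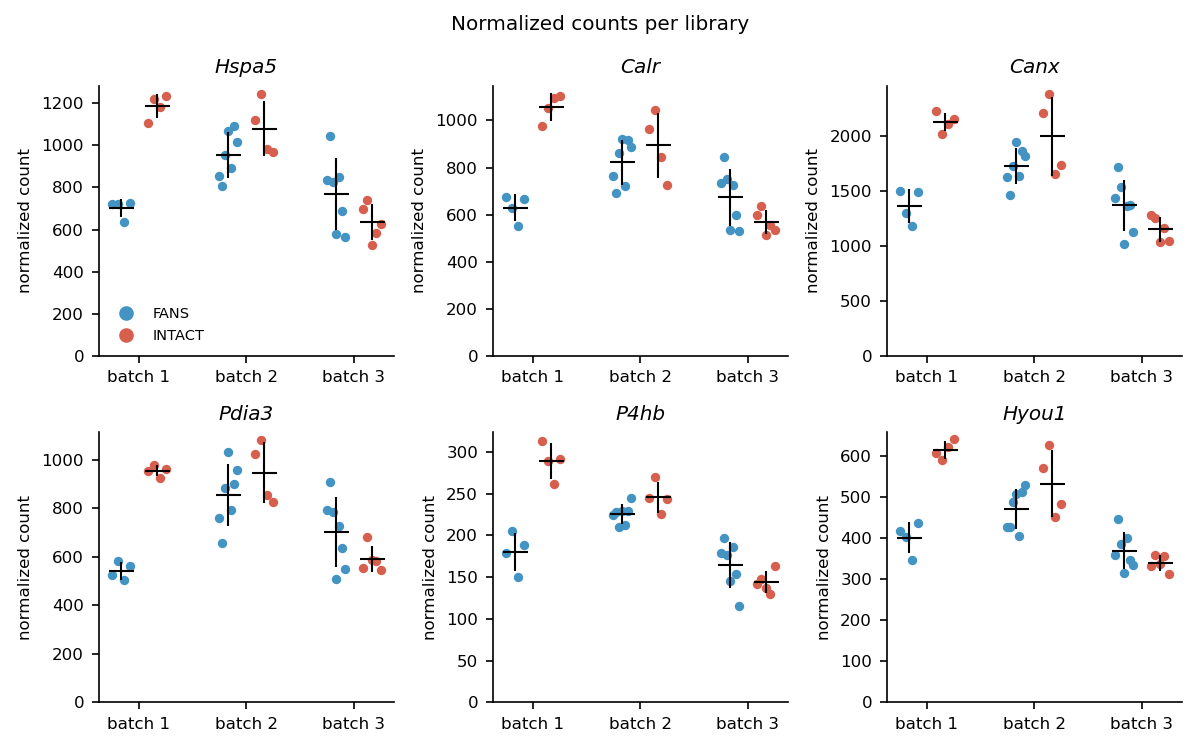
Normalized counts (y axis, from 0) of the 6 genes called in batch 1, with a point per library, FANS in blue and INTACT in red, and the mean ± SD in black. In batch 1 the INTACT points of Hspa5 lie between 1106 and 1234 and the FANS points between 638 and 726, whereas the points of the techniques overlap in batches 2 and 3. The tables were scaled separately, so heights are compared within a batch.

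Among the luminal genes that passed an adjusted p of 0.05 in batch 1 below 1.5-fold, Hsp90b1 (chr10:86690841-86705444, - strand) folds receptors and other client proteins late in their maturation. Hsp90b1 normalized counts in batch 1 were 1859.8, 1882, 1584 and 1745 in FANS and 2481, 2405, 2511 and 2587 in INTACT, without overlap (log2 fold change 0.50 ± 0.051 (SE), adjusted p = 3.62e-08). Batch 2 held Hsp90b1 at 1991 to 2268 (median 2111) in FANS and at 2517, 2586, 2188 and 2255 in INTACT, with overlap (log2 fold change 0.17 ± 0.056 (SE), adjusted p = 0.112). Batch 3 held Hsp90b1 at 1522 to 2047 (median 1911) in FANS and at 1636, 1702, 1567, 1649 and 1605 in INTACT, with overlap (log2 fold change -0.14 ± 0.065 (SE), adjusted p = 0.318). Pdia6 (chr12:17266589-17284785, + strand) is a disulfide isomerase that works with BiP. Pdia6 normalized counts in batch 1 were 376, 351, 372 and 377 in FANS and 529, 516, 495 and 544 in INTACT, without overlap (log2 fold change 0.50 ± 0.064 (SE), adjusted p = 1.13e-06). Batch 2 held Pdia6 at 347 to 489 (median 456) in FANS and at 479.5, 526, 409 and 398 in INTACT, with overlap (log2 fold change 0.031 ± 0.084 (SE), adjusted p = 0.903). Batch 3 held Pdia6 at 284 to 389 (median 333) in FANS and at 324, 287, 271, 290.5 and 312 in INTACT, with overlap (log2 fold change -0.17 ± 0.080 (SE), adjusted p = 0.344). Its exons overlap those of Atp6v1c2 on the opposite strand, and the strand setting of the counting is not given in the sources used here. Pdia4 (ERp72; chr6:47796141-47813512, - strand) is a further isomerase of the family. Pdia4 normalized counts in batch 1 were 163, 204, 146 and 185 in FANS and 249, 266, 250.4 and 247 in INTACT, without overlap (log2 fold change 0.55 ± 0.10 (SE), adjusted p = 7.46e-05). Batch 2 held Pdia4 at 168 to 229 (median 214) in FANS and at 242, 303, 204 and 196 in INTACT, with overlap (log2 fold change 0.18 ± 0.10 (SE), adjusted p = 0.415). Batch 3 held Pdia4 at 136 to 215 (median 185) in FANS and at 124, 178, 129, 152 and 137 in INTACT, with overlap (log2 fold change -0.30 ± 0.11 (SE), adjusted p = 0.158).

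The J-domain proteins hand clients to BiP and stimulate its ATPase. Dnajb9 (ERdj4; chr12:44205897-44210068, - strand) also represses IRE1. Dnajb9 normalized counts in batch 1 were 237, 184, 161 and 171 in FANS and 266, 273, 246 and 286 in INTACT, without overlap (log2 fold change 0.52 ± 0.10 (SE), adjusted p = 0.000216). Batch 2 held Dnajb9 at 188 to 283 (median 249.8) in FANS and at 296, 305, 230.5 and 234 in INTACT, with overlap (log2 fold change 0.12 ± 0.10 (SE), adjusted p = 0.613). Batch 3 held Dnajb9 at 117 to 214 (median 177) in FANS and at 175, 169.7, 136, 125 and 169 in INTACT, with overlap (log2 fold change -0.066 ± 0.13 (SE), adjusted p = 0.878). Dnajb11 (ERdj3; chr16:22857845-22879634, + strand) binds unfolded substrates directly. Dnajb11 normalized counts in batch 1 were 196, 217, 185 and 203 in FANS and 239.6, 261, 248 and 260.4 in INTACT, without overlap (log2 fold change 0.33 ± 0.084 (SE), adjusted p = 0.00267). Batch 2 held Dnajb11 at 201 to 225 (median 216) in FANS and at 257, 249.6, 211 and 195 in INTACT, with overlap (log2 fold change 0.075 ± 0.083 (SE), adjusted p = 0.712). Batch 3 held Dnajb11 at 135 to 206 (median 168) in FANS and at 154, 168, 133, 126 and 152 in INTACT, with overlap (log2 fold change -0.21 ± 0.10 (SE), adjusted p = 0.363). The gene Dnajc3 (p58IPK; chr14:118937932-118981702, + strand) encodes a further J-domain protein of the ER. Dnajc3 normalized counts in batch 1 were 446, 505, 417 and 488 in FANS and 492, 519, 507 and 544 in INTACT, with overlapping ranges (log2 fold change 0.16 ± 0.068 (SE), adjusted p = 0.078). Batch 2 held Dnajc3 at 456 to 563 (median 536) in FANS and at 542, 559, 478 and 486 in INTACT, with overlap (log2 fold change -0.0015 ± 0.068 (SE), adjusted p = 0.994). Batch 3 held Dnajc3 at 389 to 498 (median 449) in FANS and at 412, 401, 361, 394 and 382 in INTACT, with overlap (log2 fold change -0.19 ± 0.065 (SE), adjusted p = 0.139). Dnajc3 thus did not pass in batch 1, although Dnajb9 and Dnajb11 did.

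Uggt1 (chr1:36140028-36244320, - strand) adds glucose back to misfolded glycoproteins so that they return to the lectin chaperones. Uggt1 normalized counts in batch 1 were 1224, 1209, 1271 and 1309.7 in FANS and 1515, 1384, 1471 and 1414 in INTACT, without overlap (log2 fold change 0.21 ± 0.049 (SE), adjusted p = 0.00181). Batch 2 held Uggt1 at 1087 to 1298 (median 1142) in FANS and at 1223, 1212, 1107 and 1145 in INTACT, with overlap (log2 fold change 0.00012 ± 0.056 (SE), adjusted p = 0.999). Batch 3 held Uggt1 at 976 to 1019 (median 1002) in FANS and at 950.1, 1043, 1016, 970.0 and 941 in INTACT, with overlap (log2 fold change -0.023 ± 0.049 (SE), adjusted p = 0.893). Manf (chr9:106888753-106891938, - strand) is a secreted protein of the ER lumen with a protective role in neurons. Manf normalized counts in batch 1 were 109, 124, 140.4 and 149.8 in FANS and 144, 148, 130.2 and 153 in INTACT, with overlapping ranges (log2 fold change 0.14 ± 0.11 (SE), adjusted p = 0.339). Batch 2 held Manf at 119 to 172 (median 140.3) in FANS and at 157, 163, 144 and 151 in INTACT, with overlap (log2 fold change 0.071 ± 0.10 (SE), adjusted p = 0.791). Batch 3 held Manf at 89.4 to 125 (median 107) in FANS and at 99.8, 109, 73.2, 82.1 and 81.2 in INTACT, with overlap (log2 fold change -0.29 ± 0.11 (SE), adjusted p = 0.226). Ero1l (Ero1a in RefSeq; chr14:45283087-45318572, - strand) reoxidises protein disulfide isomerase. Ero1l normalized counts in batch 1 were 518, 506, 495 and 523 in FANS and 524, 529, 488 and 512 in INTACT, with overlapping ranges (log2 fold change 0.0075 ± 0.060 (SE), adjusted p = 0.939). Batch 2 held Ero1l at 439 to 504 (median 477) in FANS and at 458, 516, 444 and 487 in INTACT, with overlap (log2 fold change 0.0048 ± 0.062 (SE), adjusted p = 0.982). Batch 3 held Ero1l at 333 to 393 (median 366) in FANS and at 353, 358, 372, 334 and 351 in INTACT, with overlap (log2 fold change -0.044 ± 0.063 (SE), adjusted p = 0.815). Of these, Uggt1 alone passed in batch 1.

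The other luminal genes differed among themselves. Creld2, a disulfide isomerase-like protein secreted under ER stress, was at 71.1 to 108 normalized counts with FANS and 106 to 139 with INTACT in batch 1, with a log2 fold change of 0.55 ± 0.14 (adjusted p = 0.00249). In the other batches it stood at 0.23 ± 0.11 (adjusted p = 0.29) in batch 2 and 0.35 ± 0.13 (adjusted p = 0.171) in batch 3. Txndc5, a thioredoxin-domain isomerase, was at 115 to 153 normalized counts with FANS and 168 to 207 with INTACT in batch 1 (0.50 ± 0.11, adjusted p = 0.000651). Its exons overlap those of Bmp6 on the opposite strand. Sec61a1, the channel of the translocon, was at 292 to 320.0 normalized counts with FANS and 308 to 369 with INTACT in batch 1 (0.16 ± 0.075, adjusted p = 0.109), and Ppib, the proline isomerase cyclophilin B, at 248 to 309 normalized counts with FANS and 274 to 317 with INTACT (0.061 ± 0.082, adjusted p = 0.601). Ppib overlaps Snx22 on the opposite strand. The low counts of Sdf2l1 and Sec61b left wide errors, at 0.54 ± 0.28 (adjusted p = 0.142) and 0.67 ± 0.44 (adjusted p = 0.247) in batch 1.

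Of the 6 degradation genes, 4 passed an adjusted p of 0.05 in batch 1 as higher, where 18.6% of all genes did. Herpud1 (chr8:94386429-94395371, + strand) is a membrane protein that assembles the degradation complex and is a strong target of the stress response. Herpud1 normalized counts in batch 1 were 292, 282, 292 and 270.5 in FANS and 361, 413, 387 and 431 in INTACT, without overlap (log2 fold change 0.48 ± 0.074 (SE), adjusted p = 1.17e-05). Batch 2 held Herpud1 at 274 to 341 (median 305) in FANS and at 327, 377, 329 and 305 in INTACT, with overlap (log2 fold change 0.13 ± 0.077 (SE), adjusted p = 0.43). Batch 3 held Herpud1 at 167 to 241 (median 222) in FANS and at 177, 159, 178, 172 and 156 in INTACT, with overlap (log2 fold change -0.32 ± 0.091 (SE), adjusted p = 0.0644). Syvn1 (HRD1; chr19:6046576-6053718, + strand) is the ubiquitin ligase at the core of that complex. Syvn1 normalized counts in batch 1 were 352, 387, 335 and 330.1 in FANS and 521, 503, 480.2 and 503 in INTACT, without overlap (log2 fold change 0.51 ± 0.068 (SE), adjusted p = 1.68e-06). Batch 2 held Syvn1 at 359.7 to 405 (median 374) in FANS and at 444, 494, 364 and 423 in INTACT, with overlap (log2 fold change 0.18 ± 0.072 (SE), adjusted p = 0.208). Batch 3 held Syvn1 at 172 to 266 (median 241) in FANS and at 255, 274, 279.8, 270.0 and 268 in INTACT, with overlap (log2 fold change 0.20 ± 0.085 (SE), adjusted p = 0.266). Sel1l (chr12:91806043-91849157, - strand) is the partner that holds Syvn1 stable. Sel1l normalized counts in batch 1 were 1491, 1609.9, 1548 and 1589 in FANS and 2047, 2075, 2129 and 2119 in INTACT, without overlap (log2 fold change 0.42 ± 0.045 (SE), adjusted p = 6.16e-08). Batch 2 held Sel1l at 1582 to 1908 (median 1646) in FANS and at 2046, 2137, 1778 and 1639 in INTACT, with overlap (log2 fold change 0.15 ± 0.065 (SE), adjusted p = 0.25). Batch 3 held Sel1l at 1287 to 1636 (median 1369.7) in FANS and at 1411, 1481, 1284, 1428 and 1394 in INTACT, with overlap (log2 fold change -0.017 ± 0.059 (SE), adjusted p = 0.938).

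Derl1 (Derlin-1; chr15:57869502-57892418, - strand) helps to move substrates out of the ER. Derl1 normalized counts in batch 1 were 194, 181, 144 and 215 in FANS and 239, 236, 221 and 237 in INTACT, without overlap (log2 fold change 0.36 ± 0.10 (SE), adjusted p = 0.00769). Batch 2 held Derl1 at 137 to 210.3 (median 179) in FANS and at 203, 230.2, 162 and 174 in INTACT, with overlap (log2 fold change 0.12 ± 0.11 (SE), adjusted p = 0.664). Batch 3 held Derl1 at 115 to 164 (median 124) in FANS and at 103, 118, 127, 107 and 85.2 in INTACT, with overlap (log2 fold change -0.27 ± 0.11 (SE), adjusted p = 0.255). Its relative Derl2 was at 307 to 395 normalized counts with FANS and 363 to 371 with INTACT in batch 1, with a log2 fold change of 0.056 ± 0.075 (adjusted p = 0.603), and Edem1, a lectin that directs glycoproteins to degradation, was at 256 to 335 normalized counts with FANS and 297 to 323 with INTACT (0.040 ± 0.083, adjusted p = 0.747). Syvn1 and Derl2 overlap Mrpl49 and Mis12 on the opposite strand. Herpud1 and Derl1 had negative values in batch 3 (-0.32 and -0.27), whereas Syvn1 stayed positive (0.20); none of these passed the adjusted threshold there.

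Among the 10 tested sensors and factors, 4 passed an adjusted p of 0.05 in batch 1 as higher, where 18.6% of all genes did. None was called at 1.5-fold, where 4.03% of all genes were called higher. Xbp1 (chr11:5520641-5525993, + strand) encodes the factor whose mRNA IRE1 splices in the cytosol. Xbp1 normalized counts in batch 1 were 399, 406, 353 and 339 in FANS and 449.9, 474, 456 and 473 in INTACT, without overlap (log2 fold change 0.31 ± 0.070 (SE), adjusted p = 0.00103). Batch 2 held Xbp1 at 371 to 437 (median 400.4) in FANS and at 454, 409, 366 and 406 in INTACT, with overlap (log2 fold change 0.034 ± 0.069 (SE), adjusted p = 0.858). Batch 3 held Xbp1 at 203 to 302 (median 256) in FANS and at 237, 242, 234, 226 and 251 in INTACT, with overlap (log2 fold change -0.11 ± 0.082 (SE), adjusted p = 0.608). Atf4 (chr15:80255184-80257545, + strand) encodes the factor whose translation rises when PERK phosphorylates eIF2. Atf4 normalized counts in batch 1 were 464, 440.2, 476 and 432 in FANS and 507, 563, 593 and 569.8 in INTACT, without overlap (log2 fold change 0.30 ± 0.065 (SE), adjusted p = 0.000725). Batch 2 held Atf4 at 335 to 417 (median 359.8) in FANS and at 387, 437, 401 and 443 in INTACT, with overlap (log2 fold change 0.19 ± 0.071 (SE), adjusted p = 0.186). Batch 3 held Atf4 at 233 to 338 (median 275) in FANS and at 284, 304, 249.7, 253 and 297 in INTACT, with overlap (log2 fold change -0.038 ± 0.084 (SE), adjusted p = 0.898). Eif2ak3 (chr6:70844484-70905241, + strand) encodes PERK itself. Eif2ak3 normalized counts in batch 1 were 302, 358, 288 and 355 in FANS and 375, 378, 379 and 412 in INTACT, without overlap (log2 fold change 0.25 ± 0.078 (SE), adjusted p = 0.0143). Batch 2 held Eif2ak3 at 282 to 352 (median 303) in FANS and at 325, 372, 339.6 and 319 in INTACT, with overlap (log2 fold change 0.13 ± 0.072 (SE), adjusted p = 0.426). Batch 3 held Eif2ak3 at 239.8 to 317 (median 260.5) in FANS and at 248, 243, 208, 246 and 249 in INTACT, with overlap (log2 fold change -0.17 ± 0.077 (SE), adjusted p = 0.324). Gene-level counts do not tell spliced from unspliced Xbp1 mRNA.

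Ppp1r15b (chr1:133131166-133139800, + strand) encodes CReP, the constitutive subunit that takes the phosphate off eIF2. Ppp1r15b normalized counts in batch 1 were 349, 315, 226 and 266 in FANS and 425, 391, 377 and 398 in INTACT, without overlap (log2 fold change 0.48 ± 0.10 (SE), adjusted p = 0.000339). Batch 2 held Ppp1r15b at 299 to 370.4 (median 341) in FANS and at 347, 384, 346 and 307 in INTACT, with overlap (log2 fold change 0.043 ± 0.075 (SE), adjusted p = 0.833). Batch 3 held Ppp1r15b at 173 to 312 (median 219.6) in FANS and at 153, 218, 207, 179.6 and 193 in INTACT, with overlap (log2 fold change -0.28 ± 0.11 (SE), adjusted p = 0.222). Its stress-induced relative Ppp1r15a (GADD34; chr7:45522917-45526268, - strand) was expressed at lower counts. Ppp1r15a normalized counts in batch 1 were 39.9, 41.7, 40.9 and 47.4 in FANS and 55.4, 43.6, 43.2 and 55.5 in INTACT, with overlapping ranges (log2 fold change 0.21 ± 0.17 (SE), adjusted p = 0.38). Batch 2 held Ppp1r15a at 29.5 to 58.8 (median 40.1) in FANS and at 32.2, 32.1, 24.7 and 36.3 in INTACT, with overlap (log2 fold change -0.36 ± 0.19 (SE), adjusted p = 0.39). Batch 3 held Ppp1r15a at 18.5 to 38.8 (median 29.5) in FANS and at 14.4, 27.8, 34.1, 29.8 and 27.4 in INTACT, with overlap (log2 fold change -0.11 ± 0.21 (SE), adjusted p = 0.881). Exons of Ppp1r15a overlap Tulp2 on the opposite strand. Trib3 (chr2:152337425-152344060, - strand) stayed near the floor of the assay. Trib3 normalized counts in batch 1 were 2.57, 0, 4.09 and 1.53 in FANS and 2.60, 1.53, 1.99 and 1.98 in INTACT. Batch 2 held Trib3 at 0 to 4.55 (median 1.02) in FANS and at 0, 4.58, 1.03 and 3.30 in INTACT. Batch 3 held Trib3 at 0 to 2.84 (median 0.890) in FANS and at 1.03, 0, 4.01, 1.03 and 0 in INTACT. At these counts no difference of Trib3 was detectable.

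Ern1 (chr11:106397620-106487796, - strand) encodes the sensor IRE1. Ern1 normalized counts in batch 1 were 188, 175, 168 and 193 in FANS and 183, 198, 183 and 182 in INTACT, with overlapping ranges (log2 fold change 0.045 ± 0.090 (SE), adjusted p = 0.736). Batch 2 held Ern1 at 154 to 196 (median 159.5) in FANS and at 178, 135, 177 and 169 in INTACT, with overlap (log2 fold change -0.020 ± 0.10 (SE), adjusted p = 0.949). Batch 3 held Ern1 at 101 to 127 (median 118) in FANS and at 106, 112, 118, 131 and 112 in INTACT, with overlap (log2 fold change 0.0064 ± 0.095 (SE), adjusted p = 0.986). The proteases that cut ATF6 in the Golgi are encoded by Mbtps1 and Mbtps2, of which Mbtps1 lies at chr8:119508151-119558864, - strand. Mbtps1 normalized counts in batch 1 were 718, 676, 756 and 688 in FANS and 779, 755, 763 and 750.3 in INTACT, with overlapping ranges (log2 fold change 0.10 ± 0.056 (SE), adjusted p = 0.152). Batch 2 held Mbtps1 at 615 to 674 (median 657) in FANS and at 614, 614, 584 and 634 in INTACT, with overlap (log2 fold change -0.087 ± 0.055 (SE), adjusted p = 0.482). Batch 3 held Mbtps1 at 507 to 569 (median 528) in FANS and at 530.1, 488, 507, 503 and 511 in INTACT, with overlap (log2 fold change -0.074 ± 0.055 (SE), adjusted p = 0.604). Mbtps2 lies at chrX:157547822-157598715, - strand. Mbtps2 normalized counts in batch 1 were 333, 352, 365 and 361 in FANS and 314, 346, 358 and 334 in INTACT, with overlapping ranges (log2 fold change -0.061 ± 0.071 (SE), adjusted p = 0.539). Batch 2 held Mbtps2 at 273 to 367 (median 322) in FANS and at 372, 381, 332 and 297 in INTACT, with overlap (log2 fold change 0.10 ± 0.081 (SE), adjusted p = 0.591). Batch 3 held Mbtps2 at 252 to 282 (median 278) in FANS and at 250.1, 258, 224, 263 and 232 in INTACT, with overlap (log2 fold change -0.15 ± 0.069 (SE), adjusted p = 0.314). Neither Ern1 nor the proteases passed in any batch.

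Atf6, the sensor that itself becomes a transcription factor, was at 912 to 1198 normalized counts with FANS and 959 to 1046 with INTACT in batch 1, with a log2 fold change of -0.020 ± 0.065 (adjusted p = 0.84). In batch 3 it stood at -0.20 ± 0.059 (adjusted p = 0.0869). Ddit3 (CHOP), the factor linked to cell death under lasting stress, was at 35.6 to 64.0 normalized counts with FANS and 52.5 to 61.5 with INTACT in batch 1 (0.28 ± 0.18, adjusted p = 0.224), and it overlaps Mars1 on the opposite strand. Ddit3 and Ppp1r15a, known targets of PERK signalling, thus passed in no batch, and Trib3 was not tested.

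The differences between batches were then tested directly in a limma fit with a mean for each batch and technique, over the 14332 genes tested in all 3 batches. The difference between INTACT and FANS was larger in batch 1 than in batch 2 for 8 of the 37 ER genes, where 1.87% of all genes passed in this direction, and all 8 are luminal. They were Pdia3 with a log2 difference of 0.66 ± 0.16 (adjusted p = 0.00532), Calr with 0.63 ± 0.15 (adjusted p = 0.00428), Hspa5 with 0.58 ± 0.16 (adjusted p = 0.0166), P4hb with 0.56 ± 0.15 (adjusted p = 0.014), Pdia6 with 0.47 ± 0.13 (adjusted p = 0.0158), Canx with 0.45 ± 0.14 (adjusted p = 0.0489), Hyou1 with 0.45 ± 0.13 (adjusted p = 0.0223) and Hsp90b1 with 0.33 ± 0.10 (adjusted p = 0.0281). Against batch 3 the difference was larger in batch 1 for 22 of 37, 14 luminal, 4 of degradation and 4 of the sensors and factors, where 11.2% of all genes passed. The largest of these were Pdia3 at 1.04 ± 0.15 (adjusted p = 1.91e-06), Hspa5 at 1.01 ± 0.15 (adjusted p = 3.51e-06) and Calr at 0.98 ± 0.14 (adjusted p = 1.65e-06), and among the other roles Herpud1 at 0.81 ± 0.12 (adjusted p = 3.51e-06) and Ppp1r15b at 0.75 ± 0.15 (adjusted p = 0.000309). Between batches 2 and 3, 0 ER genes passed in limma (0.00% of all genes). At an unadjusted p of 0.05, 17 were positive, where 7.34% of all genes were. These contrasts share the libraries of each batch, so they are not independent of each other. The genes were chosen with results of batch 1 known, so the counts of contrasts with batch 1 are no independent evidence of its larger differences.

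Taking batches 2 and 3 together in that fit, no ER gene was called at 1.5-fold, where 0.265% of all genes were called in either direction. The median log2 fold change was -0.026. It was 0.075 in batch 2 alone and -0.11 in batch 3 alone, so opposite signs partly cancel in this mean. Without the fold threshold 2 genes passed, both higher in INTACT, where 4.44% of all genes did. They were Creld2 at 0.29 ± 0.080 (adjusted p = 0.0188) and Syvn1 at 0.19 ± 0.054 (adjusted p = 0.0218). In all, 5 of the 37 genes passed an unadjusted p of 0.05, where 17.9% of all genes did, the others being Dnajc3, Atf6 and Mbtps1, with negative values.

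The genes with an ERSE or ERSE-II were described beside the others with a promoter entry, and in batch 1 18.6% of all genes passed an adjusted p of 0.05 as higher and 4.03% also the 1.5-fold threshold. In batch 1 their median log2 fold change was 0.51 (10 genes, 9 of which passed an adjusted p of 0.05). It was 0.28 for the 21 tested genes with neither ERSE nor ERSE-II (10 passed), among them Txndc5, which held TGACGTGG. All genes with an ERSE or ERSE-II were luminal or degradation genes. The others included every tested sensor and factor with a promoter entry, so the groups also differed in role. Both groups held genes called at 1.5-fold, 3 and 2. The range of the group with an element, 0.16 (Dnajc3) to 0.76 (Hspa5), lay within that of the others, -0.061 (Mbtps2) to 0.82 (Pdia3). In batch 2 the medians were 0.15 and 0.034, and in batch 3 they were -0.20 and -0.044.

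Other genes of the secretory pathway were described beside the 38 in batch 1, where 4.03% of all genes were called higher. Of the other folding enzymes and chaperones of the ER, 6 of 36 tested were called higher and 0 lower, with a median log2 fold change of 0.22 (by the adjusted p alone 15 passed as higher and 1 as lower). Sep15, a selenoprotein that works with Uggt1, averaged 160.1 ± 23.0 normalized counts (SD) over the 4 FANS libraries and 269 ± 15.4 over the 4 INTACT libraries (log2 fold change 0.76 ± 0.097, adjusted p = 1.07e-06). Tmx2, a thioredoxin-related membrane protein, and Cnpy2, an ER protein of the saposin-like family, followed at 0.64 ± 0.078 and 0.68 ± 0.16. Of the glycosylation and lectin genes 1 of 23 was called, Rpn1 of the oligosaccharyltransferase, at 0.64 ± 0.10, and the median was 0.20 (11 passed as higher and 2 as lower). Of the translocation genes 1 of 22 was called, the signal peptidase subunit Spcs1 at 0.71 ± 0.15, and the median was 0.26 (12 passed as higher and 1 as lower). Of the other degradation genes 1 of 21 was called, Aup1, which recruits a ubiquitin-conjugating enzyme, at 0.67 ± 0.068, and the median was 0.028 (6 passed as higher and 0 as lower). Of the other stress signalling genes 2 of 24 were called, Atf6b at 0.60 ± 0.088 and Creb3 at 0.60 ± 0.100, both membrane-bound factors like ATF6, and the median was 0.20 (9 passed as higher and 1 as lower). At 1.5-fold the shares of the glycosylation, translocation and other degradation genes were near that of all genes, whereas by the adjusted p alone, which 18.6% of all genes passed as higher, they were above it. Limma called no gene of these 5 lists lower in batch 1 and none in batches 2 and 3. The calls of Atf6b, Creb3, Rpn1 and Spcs1 were lost in some alternatives.

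The comparison lists set a scale for these values in batch 1. At 1.5-fold 4.03% of all genes were called higher, and by the adjusted p alone 18.6% passed as higher. Of the 37 tested ER genes, 22 passed the adjusted p alone as higher. Of 30 cytosolic chaperones, which do not enter the ER, 0 were called at 1.5-fold by limma, 13 passed the adjusted p alone as higher and 2 as lower, and the median was 0.20. Of 44 neuronal membrane and secreted proteins made at the ER, 20 were called higher and the median was 0.53. By the adjusted p alone 37 passed as higher and 2 as lower. Those called included Pcsk1n (0.88 ± 0.11), Ctsb (0.85 ± 0.069) and Thy1 (0.85 ± 0.064). Of 24 abundant cytoplasmic mRNAs, 6 were called higher and the median was 0.45. Without the fold threshold 23 passed as higher and 0 as lower. Aldoc (0.83 ± 0.15), Eef2 (0.71 ± 0.051) and Fth1 (0.70 ± 0.074) were among the 6 called. The median of the luminal genes (0.52) was thus close to that of the proteins made at the ER and of the cytoplasmic mRNAs, and above that of the cytosolic chaperones; the differences between lists were not tested. In batch 2 the medians of the 3 comparison lists were 0.019, 0.14 and 0.11, and in batch 3 they were -0.12, -0.18 and -0.16.

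**Figure D3:**
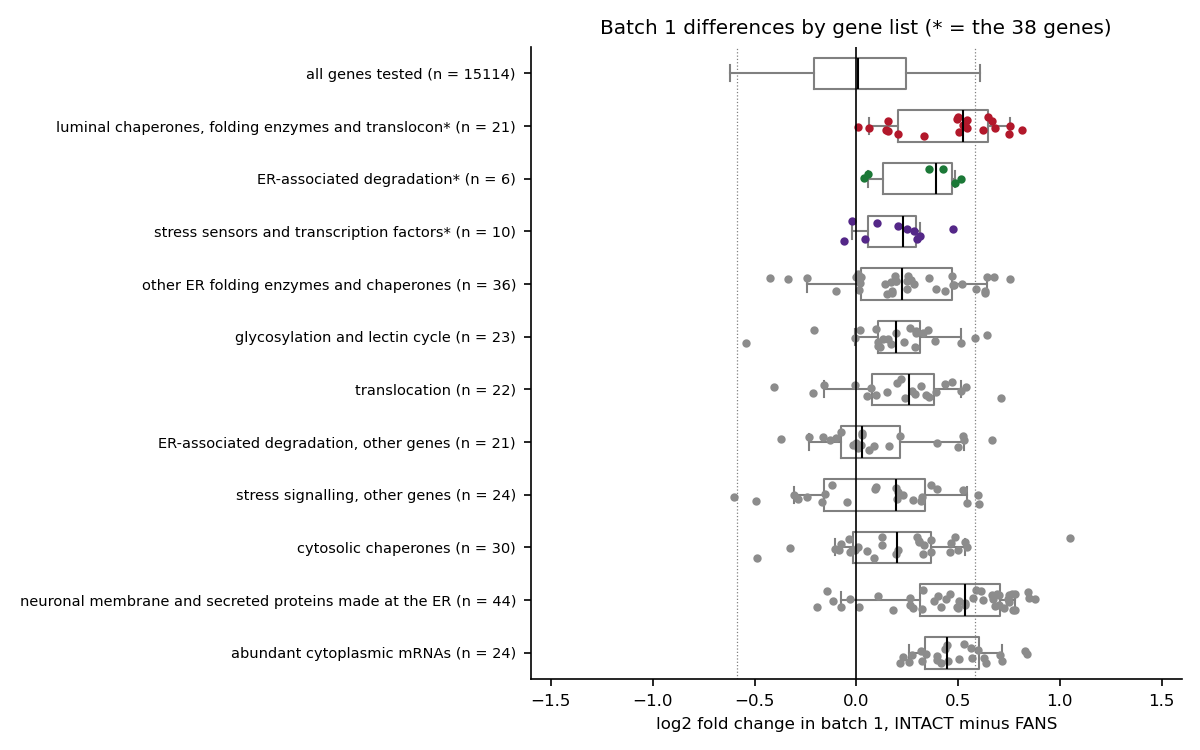
Log2 fold change in batch 1 (x axis, INTACT minus FANS) of the genes of each list (y axis), with a point per gene for the lists, boxes from the lower to the upper quartile with the median, whiskers to the 5th and 95th percentiles, and dotted lines at 1.5-fold. The box of all 15114 genes is centred near 0, whereas the medians of the luminal genes, the proteins made at the ER and the abundant cytoplasmic mRNAs lie between 0.45 and 0.53.

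Gene length was described as well. Over the 37 tested genes, the log2 fold change of batch 1 was lower for longer genes (Pearson's r = -0.40 and Spearman's rho = -0.40 with log10 gene length), and over 15058 genes the same values were -0.16 and -0.30. The 15 ER genes shorter than 10 kb had a median of 0.48, the 16 of 10 to 50 kb a median of 0.46, and the 6 of 50 kb or longer a median of 0.074. Among all genes of these classes the medians were 0.19, 0.019 and -0.12. In batch 1 the ER genes of each class thus had higher medians than all genes of that length. In batch 2 the class medians were 0.12, 0.096 and -0.0098, against 0.050, 0.0067 and -0.036 for all genes. In batch 3 they were lower than for all genes, at -0.066, -0.16 and -0.11 against 0.0018, -3.0e-06 and -0.012. The part of gene length in the differences was not tested. In batches 2 and 3 rho over the ER genes was -0.16 and -0.066. These points share their libraries and are genes, not replicates.

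Every one of the 38 genes had an ATAC-seq peak within 1 kb of an annotated start site in each of the 6 libraries, where 56.9% of 24233 genes with such start sites had one in all 6. With every gene at its maximum in every library, the count cannot show a difference between the techniques. Trib3, with almost no RNA, also held its peak, with 8.84, 9.57 and 8.54 in FANS and 6.91, 5.93 and 7.94 in INTACT (log2 difference -0.38 ± 0.13, adjusted p = 0.0408).

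The height of the start-site peak was taken as the fold enrichment of its summit over the local background. Heights of the 38 genes had a median of 18.9, 18.9 and 18.5 in the FANS libraries and of 15.9, 15.2 and 17.5 in the INTACT libraries. Over the 13780 genes with a peak in all 6 libraries the medians were 14.6, 14.7 and 14.8, and 11.9, 11.0 and 13.3. The ER genes were therefore lower in INTACT together with start sites at large. By limma on log2 heights, 13 of the 38 were lower in INTACT at an adjusted p of 0.05, where 35.6% of all genes were. Their median log2 difference was -0.18, against -0.23 over all genes. In 22 of 38 genes every INTACT library lay below every FANS library, where 54.8% of all genes showed this, and in 0 the reverse. The share of the ER genes was thus near that of all genes.

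By role, 5 of 21 luminal genes, 0 of 6 degradation genes and 8 of 11 sensors and factors were lower, where 35.6% of all genes were. The 8 were Xbp1, Atf4, Ern1 and the linked genes Trib3, Ppp1r15a, Ppp1r15b, Mbtps1 and Mbtps2. With each library centred on the median of all start sites, 2 of the 13 genes lower in INTACT stayed lower. They were Ppp1r15a and Mbtps2, which are in this group but encode neither a sensor nor a transcription factor. The largest differences were in Ppp1r15a, with heights of 10.5, 11.7 and 11.6 in FANS and 7.38, 5.18 and 8.03 in INTACT (log2 difference -0.74 ± 0.16, adjusted p = 0.00479), Mbtps2, with 12.3, 13.6 and 14.1 in FANS and 9.02, 8.20 and 10.1 in INTACT (log2 difference -0.55 ± 0.11, adjusted p = 0.00436), and Ern1, with 19.5, 19.2 and 19.2 in FANS and 14.0, 10.1 and 17.6 in INTACT (log2 difference -0.51 ± 0.15, adjusted p = 0.0231). INTACT replicate 2 was the lowest library for each of these genes. Xbp1 stood at 13.6, 12.9 and 13.0 in FANS and 9.54, 9.92 and 11.3 in INTACT (log2 difference -0.36 ± 0.10, adjusted p = 0.0199). Mbtps1 stood at 24.3, 22.2 and 22.7 in FANS and 18.7, 16.5 and 21.7 in INTACT (log2 difference -0.29 ± 0.10, adjusted p = 0.0355). Ppp1r15b stood at 18.4, 18.1 and 17.8 in FANS and 14.6, 13.5 and 16.1 in INTACT (log2 difference -0.30 ± 0.090, adjusted p = 0.0233). Atf4 stood at 14.9, 14.4 and 15.5 in FANS and 13.4, 10.9 and 12.8 in INTACT (log2 difference -0.28 ± 0.10, adjusted p = 0.0498). Of the 4 sensors and factors that passed in the RNA of batch 1, Xbp1, Atf4 and Ppp1r15b thus had lower peaks in INTACT, whereas Eif2ak3 overlapped, with 19.1, 20.1 and 20.4 in FANS and 20.9, 19.2 and 20.2 in INTACT (log2 difference 0.015 ± 0.076, adjusted p = 0.867). Centred on the median of all start sites, the log2 differences were -0.073 ± 0.077 for Xbp1, 0.013 ± 0.077 for Atf4 and -0.0086 ± 0.053 for Ppp1r15b, none of which passed, and 0.31 ± 0.060 for Eif2ak3, which passed as higher.

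The luminal genes that passed were Hyou1, Uggt1, Ero1l, Dnajb9 and P4hb. Hyou1 had heights of 19.4, 21.7 and 21.2 in FANS and 15.3, 15.1 and 17.6 in INTACT (log2 difference -0.38 ± 0.089, adjusted p = 0.00834). Uggt1 had 22.3, 21.2 and 22.0 in FANS and 16.1, 15.3 and 20.4 in INTACT (log2 difference -0.35 ± 0.10, adjusted p = 0.0211). Ero1l had 16.8, 14.2 and 16.8 in FANS and 13.2, 12.3 and 13.6 in INTACT (log2 difference -0.28 ± 0.10, adjusted p = 0.0415). For each of them all INTACT libraries were below all FANS libraries. Dnajb9 had heights of 23.8, 22.3 and 22.4 in FANS and 18.8, 17.9 and 20.7 in INTACT (log2 difference -0.26 ± 0.079, adjusted p = 0.0267). P4hb had 19.8, 19.6 and 19.1 in FANS and 16.6, 15.5 and 17.1 in INTACT (log2 difference -0.25 ± 0.080, adjusted p = 0.0316). Hspa5, in contrast, overlapped between the techniques, with 20.9, 21.1 and 22.0 in FANS and 18.0, 17.8 and 22.3 in INTACT (log2 difference -0.15 ± 0.093, adjusted p = 0.198). None of the 10 genes with an ERSE or ERSE-II was lower at an adjusted p of 0.05, and their median log2 difference was -0.15. The 22 genes with neither, among them Txndc5 with its TGACGTGG, had a median of -0.24. Of the 22, 11 were lower, where 35.6% of all genes were. These groups also differed in role, as all sensors and factors with a promoter entry were among the 22. With each library centred on the median of all start sites, 0 of the 10 and 2 of the 22 were lower, and 5 of the 10 and 4 of the 22 were higher, where 15.8% of all genes were higher.

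These calls depend on the scale. The log2 difference was positive for 3 of the 38 genes (7.89%), about as for all genes (7.11%). With each library centred on the median log2 height of all start sites, which shifts all genes alike, 11 of the 38 genes were higher in INTACT, where 15.8% of all genes were, and 2 were lower, where 8.16% were. The higher genes were Hsp90b1, Calr, Pdia4, Dnajb11, Manf, Creld2, Sec61b, Herpud1, Derl1, Derl2 and Eif2ak3, with centred log2 differences from 0.14 ± 0.042 (Creld2) to 0.31 ± 0.068 (Sec61b). The lower genes were Ppp1r15a at -0.44 ± 0.12 and Mbtps2 at -0.26 ± 0.081, the same direction as without centring. Centred and without FANS replicate 2 or FANS replicate 3, 0 genes passed as lower. The number of genes lower without centring also turned on single libraries. It was 3 without FANS replicate 1, 6 without FANS replicate 2, 4 without FANS replicate 3, 3 without INTACT replicate 1, 7 without INTACT replicate 2 and 27 without INTACT replicate 3, the INTACT library with the highest peaks. The depth of these libraries is unknown.

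**Figure D4:**
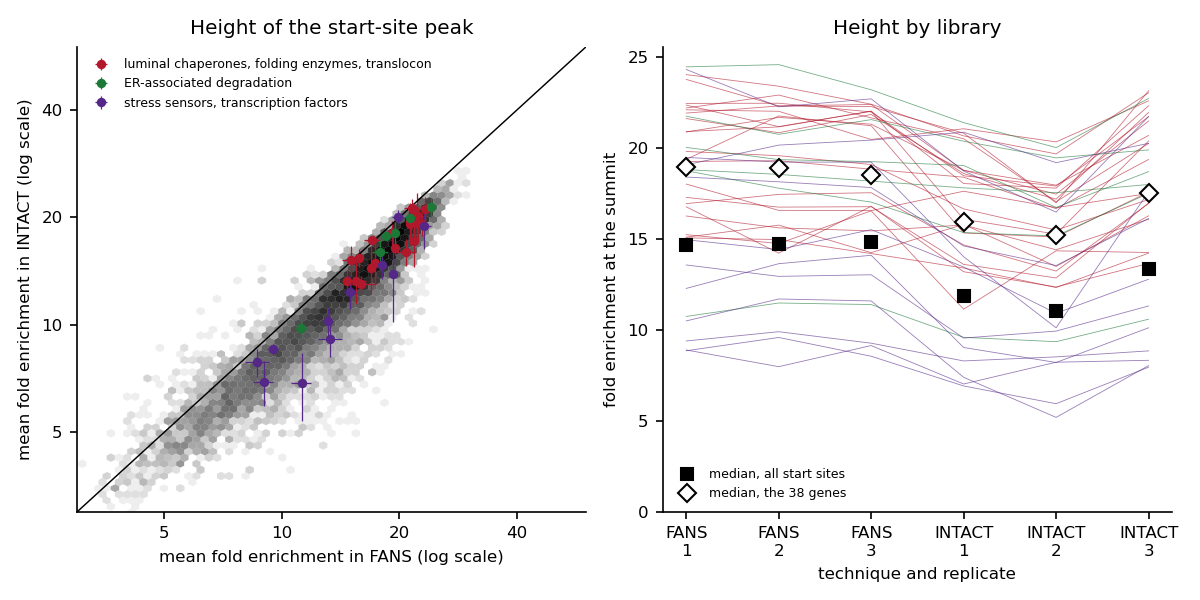
Left, mean fold enrichment of the start-site peak in FANS (x axis) and INTACT (y axis), both on log scales, for all 13780 genes (grey, darker for more genes) and the 38 ER genes (colours are roles, bars are the SD of 3 libraries). Right, the height in each library (y axis, from 0), with a line per ER gene, and the medians of all start sites (squares) and of the ER genes (diamonds). Most ER genes lie below the diagonal together with the grey cloud, and their median is above that of all start sites in each library.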

How the data were processed

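RNA-seq and ATAC-seq were analysed from the tables the authors deposited. For RNA-seq the authors used STAR (mm10) for alignment, molecular identifiers to collapse duplicates, HTSeq for counting and DESeq for scaling. The deposited signal is the count divided by a size factor for each library, in 3 tables scaled separately. Multiples of a single step gave whole reads for 100% of values (tolerance 0.1). For ATAC-seq the authors called peaks per library with MACS2. Its deposited score, fold enrichment (a ratio) and −log10 p and q values were read as given. The strand setting of the counting and ATAC-seq depth are not given in the sources used here.

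A minimum mean of 5 was required of a gene, and tests were run by limma 3.58.1 (lmFit, eBayes with trend, R 4.3.3) on log2(value + 1), and called at a Benjamini-Hochberg adjusted p under 0.05 and 1.5-fold. Differences between batches came from a fit with a mean for each batch and technique, called at an adjusted p under 0.05. Peak heights were tested by limma on the log2 of the highest fold enrichment within 1 kb of a start site. Recovered reads were tested by edgeR 4.0.16 and DESeq2 1.42.0. The 5 summary lines of each table were left out of all tests. They held 74.8 to 88.0% of reads per library. Columns of values mapped to no sample numbered 0. Scripts were tested on simulated data.

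The members and lists were chosen with earlier results of these data known. All 38 genes are named, those called in any comparison with all values, and of other lists up to 3 genes called in batch 1 with the largest changes and a mean of at least 50. Groups and replicate numbers came from the sample titles. Same-numbered libraries correlated at -0.070 to 0.11 in their deviations from the group means, so the numbers were not taken to pair them. FANS replicate 3 and INTACT replicate 5 of batch 2 were not analysed here. Alternatives were the pseudocount (5), the minimum mean (none or 20), the scaling, the model, the fold threshold, the replicate block, the window, the peak threshold and each library left out. The block for differences between batches and the centred heights with a library left out were added after seeing the data. Intervals and errors cover these libraries only.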

Additional observations from a re-analysis of the deposited data

Results flagged for a closer look

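In 10 of 228 groups of libraries of the ER genes, a single library stood far from the others by Dixon's 95% value, where chance gives about 1 in 20 groups. Hspa5, the chaperone BiP, was at 638 normalized counts in FANS replicate 3 of batch 1, with the others at 720.3 or more. Pdia4, a disulfide isomerase, was at 266 in INTACT replicate 2 of batch 1, with the next library at 250.4. Ern1, the sensor IRE1, was at 198 in the same library, with the next at 183. Eif2ak3, the sensor PERK, was at 412 in INTACT replicate 4 of batch 1, with the next at 379, and at 208 in INTACT replicate 3 of batch 3, with the next at 243. Pdia6 was at 347 in FANS replicate 1 of batch 2, with the next at 433. Syvn1, the ligase of ER-associated degradation, was at 172 in FANS replicate 7 of batch 3, with the next at 230.1. Trib3 was at 4.55 in FANS replicate 2 of batch 2, with the next library of that group at 1.70, at 2.84 in FANS replicate 1 of batch 3, with the next at 0.97, and at 4.01 in INTACT replicate 3 of batch 3, with the next at 1.03.

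The difference between the techniques was larger in batch 1 than in another batch by the test of that difference. The ER genes were chosen with results of batch 1 known. Against batch 2 the log2 differences were 0.66 for Pdia3, 0.63 for Calr, 0.58 for Hspa5, 0.56 for P4hb, 0.47 for Pdia6, 0.45 for Canx, 0.45 for Hyou1 and 0.33 for Hsp90b1. Against batch 3 they were, for the luminal genes, 1.04 for Pdia3, 1.01 for Hspa5, 0.98 for Calr, 0.88 for Canx, 0.86 for P4hb, 0.85 for Pdia4, 0.74 for Hyou1, 0.67 for Pdia6, 0.64 for Hsp90b1, 0.59 for Dnajb9, 0.54 for Dnajb11, 0.43 for Manf, 0.35 for Dnajc3 and 0.23 for Uggt1. For the degradation genes they were 0.81 for Herpud1, 0.62 for Derl1, 0.44 for Sel1l and 0.31 for Syvn1. For the sensors and factors they were 0.75 for Ppp1r15b, 0.42 for Xbp1, 0.42 for Eif2ak3 and 0.34 for Atf4.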

How the results depend on the processing

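In batch 1 the 6 called genes kept their call in 100 values over the alternatives and lost it in 2. Without FANS replicate 3 the calls of Canx and Hyou1 were lost, and the count ran from 4 to 9 when each library was left out. The count was 22 with no fold threshold, and over the mean of batches 2 and 3 it was 2. With the replicate block the counts were 6 in batch 1, 0 in batches 2 and 3 and in their mean, and 13 for lower peak heights. Differences between batches with the replicate block numbered 4 for batch 1 minus batch 2, 23 for batch 1 minus batch 3 and 13 for batch 2 minus batch 3, where 598 of all 14332 genes passed. The calls lost were those of Hsp90b1, Canx, Pdia6 and Hyou1 in batch 1 minus batch 2. Quantile normalization lost Manf and Syvn1 from batch 1 minus batch 3. The cause of these changes was not tested.

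Peak height depended most on the processing. The count lower in INTACT ran from 3 to 27 with each library left out. Centring on the median of all start sites gave 2 lower and 11 higher. Centred without FANS replicates 1, 2 and 3 in turn, 2, 0 and 0 were lower and 8, 5 and 4 higher, and without INTACT replicates 1, 2 and 3, 1, 1 and 3 were lower and 7, 7 and 12 higher. Among the 13 genes lower without centring, the centred log2 difference turned positive for 4 and, without single libraries, for 2 more. They were 0.044 for P4hb (in the same order of libraries 0.060, 0.047, 0.025, 0.024, 0.022 and 0.086) and 0.035 for Dnajb9 (0.069, 0.019, 0.018, 0.038, 0.016 and 0.052). Ero1l was at 0.0091 (0.052 without FANS replicate 1, 0.046 without FANS replicate 3 and 0.051 without INTACT replicate 3). Atf4 was at 0.013 (0.018 without FANS replicate 1, 0.036 without FANS replicate 3, 0.038 without INTACT replicate 2 and 0.061 without INTACT replicate 3). Ppp1r15b was at 0.0066 without FANS replicate 1, and Mbtps1 at 0.042 without FANS replicate 1 and 0.034 without INTACT replicate 2. The start-site count was at its maximum of 38 in the alternatives run and so could not move up or show a difference. ATAC-seq depth is unknown, and counts near 0 limit Trib3.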
